A study of Mus musculus with 33 samples.

Results

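Ms4a1, Cd79a, Cd79b, Blk, Ebf1 and Pax5 are genes by which B lymphocytes are commonly recognised, and their RNA was followed in sorted cells of the mouse brain. They were found by matching Ensembl identifiers to these symbols. All 6 were present in the count table of 21950 genes and in the log2 FPKM table of 27745 genes. RNA was sequenced from 33 libraries of brain cells of mice labelled with a disease induction called Cortical MS, which all groups share. The mice had received a vehicle or a CSF1R inhibitor, which blocks the receptor kinase that microglia need for survival, and each of 3 sorting gates had 5 vehicle and 6 inhibitor libraries. The activated gate held cells labelled microglia, with high CD45, high CD11b and no CCR2. The blood-derived gate held phagocytes with high CD45, high CD11b and CCR2, and the resting gate held microglia with intermediate CD45 and CD11b. Age, strain, inhibitor name, dose and time were not given in the labels, nor whether libraries came from separate animals, so p-values measure only the spread between these libraries.

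B cells carry an antigen receptor made of membrane immunoglobulin and a signalling pair, Cd79a and Cd79b, whose tails are phosphorylated by Src family kinases such as Blk. Ebf1 and Pax5 are transcription factors that specify the lineage and hold it in place, and Ms4a1 encodes CD20, a surface protein of B cells that is lost in plasma cells. None of the sorting markers named in the labels is restricted to B cells, and CD11b and CD45 are found on many leukocytes. In a bulk library, fewer cells of a type and less RNA per cell cannot be told apart.

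Libraries held 11789803 to 22146705 counts. Detected genes ran from 9740 to 14028 in the activated gate and from 12769 to 14853 in the other gates. Activated vehicle library 2 and activated inhibitor libraries 1 and 2 had under 11000 detected genes. The activated gate also held RNA of other blood cells: the summed level of 12 neutrophil genes was 20760 to 142900 CPM (counts per 1000000 of the library total), against 401 to 1061 CPM elsewhere. In the same libraries 9 NK cell genes summed to 330 to 13340 CPM and 12 measured T cell genes to 100 to 467 CPM. In the other gates those sums stayed at or below 205 and 208 CPM. The 11 microglia genes summed to 1054 to 5502 CPM in the activated gate and 2787 to 4260 CPM in the blood-derived gate. In the resting gate they summed to 24230 to 39250 CPM. Between activated and resting vehicle libraries 12 of 12 neutrophil, 7 of 7 tested NK cell and 7 of 7 tested T cell genes were higher, and 10 of 11 microglia genes were lower. Over all genes tested, 28.9% were called (18.2% higher). NK and T cell genes summed to at most 5.95 and 7.67 CPM in resting vehicle libraries. Genes near 0 there pass the filter on low counts only through the activated gate, so their calls were largely fixed in advance. In these sums the activated gate differed from the resting gate, though both were labelled microglia. The part of other blood cells in the results below was not tested.

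The 6 genes fell into distinct patterns over the gates. Cd79a and Ms4a1 were present in all 11 activated libraries and nearly absent from the other 22. Blk and Pax5 were found mostly in the activated gate, but were missing from some of its libraries. Ebf1 was low in every gate, and Cd79b was present in all 33 libraries with its highest group mean in the resting gate. Activated libraries had 5 or 6 of the 6 genes at 3 or more counts, blood-derived libraries 2 to 5 and resting libraries 1 to 3.

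**Figure D1:**
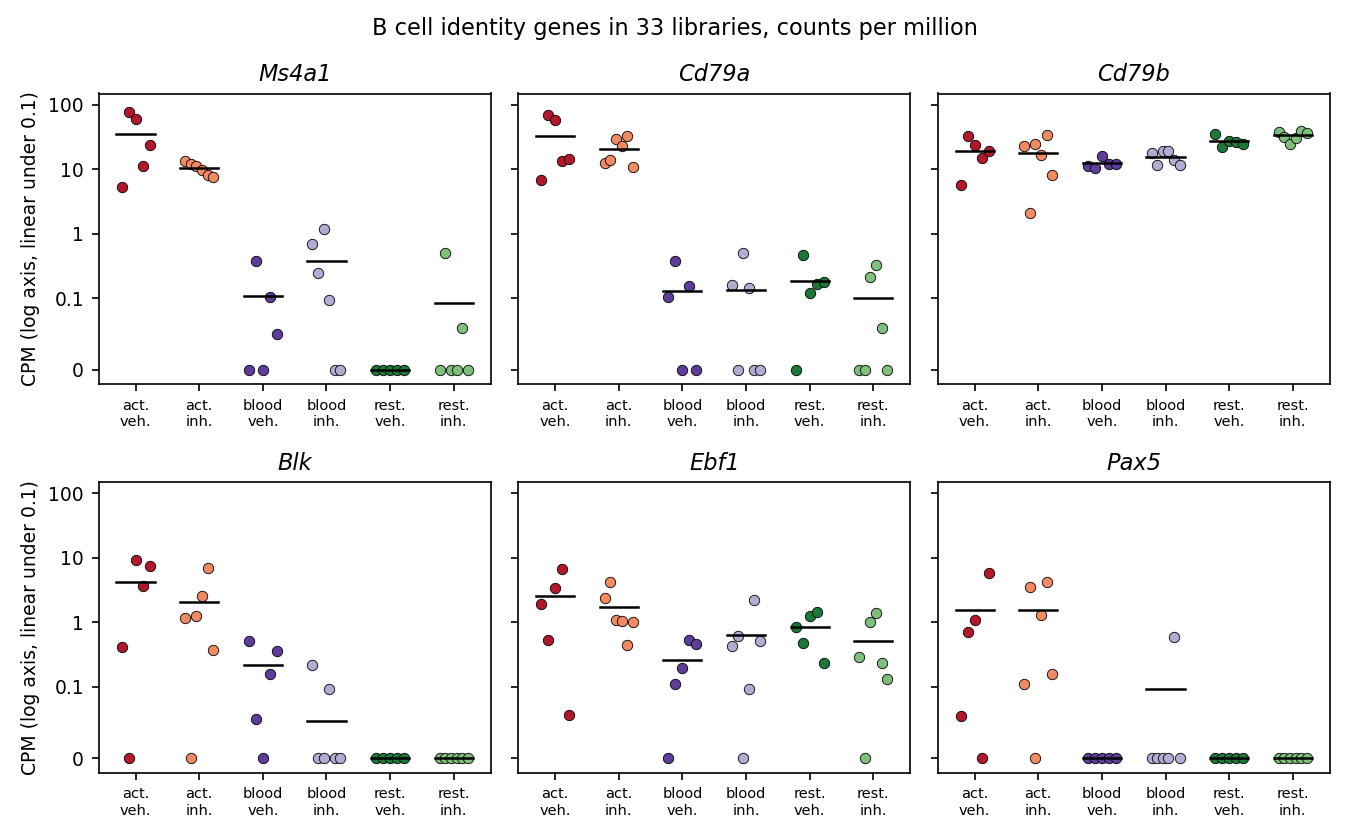
Levels of the 6 genes in CPM (counts per 1000000; logarithmic axis, linear under 0.1) in each of 33 libraries, by gate and treatment; points are libraries and lines are group means. Ms4a1 and Cd79a separate the activated gate from both other gates, Cd79b is present in all gates, and Pax5 is at 0 in all vehicle libraries of the blood-derived and resting gates.

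Cd79a (ENSMUSG00000003379) spans chr7:24897381-24902197 on the plus strand of GRCm38 and encodes the alpha chain of the signalling pair. The sequence just before its annotated start is shown because the gene separated the gates and because Ebf1, a known activator of this promoter in mice, was among the genes measured. It is taken from RefSeq (GRCm38.p6), chr7:24897247-24897380, plus strand. Capitals mark GGGAAT, a half-site of the kind Ebf1 binds, and CAGGTG, an E-box of the kind E2A proteins bind.

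Cd79a upstream: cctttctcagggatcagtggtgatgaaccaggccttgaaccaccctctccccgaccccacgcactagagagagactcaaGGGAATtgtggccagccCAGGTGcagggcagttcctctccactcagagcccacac

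The window of 134 bases that begins 250 bases upstream of the RefSeq start was searched on both strands of 32851 RefSeq promoters. For Cd79a it ends at the GENCODE start, while for other genes it ends short of the RefSeq start. GGGAAT occurred in 6.56% of these windows and CAGGTG in 9.75%. The octamer ATTTGCAT occurred in 0.843% and the spaced core CCCNNGGG in 6%, and neither had a match in the Cd79a window. The motifs searched do not overlap there. A match describes the letters only, and no binding was measured.

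In activated vehicle libraries 1 to 5, Cd79a stood at 6.94, 68.5, 58.6, 13.7 and 14.3 CPM. In activated inhibitor libraries 1 to 6 it stood at 12.6, 14.2, 29.4, 23.3, 32.7 and 11.0 CPM. The 2 highest values belonged to vehicle libraries 2 and 3, and the vehicle and inhibitor ranges overlapped. In expected counts, the blood-derived vehicle libraries held 2, 7, 0, 3 and 0, and the resting vehicle libraries 0, 10, 2, 2 and 3. With inhibitor, the blood-derived libraries held at most 10 counts and the resting libraries at most 6. Every activated library lay above every library of the other gates. The same held for Ms4a1, 2 of the 6 members, where 12.9% and 10.5% of genes tested in vehicle mice were higher without overlap than in the resting and blood-derived gates, and 11.4% and 7.55% in inhibitor mice. In vehicle mice Cd79a was higher in the activated than in the resting gate by 7.38 ± 0.97 (log2 fold change ± SE, edgeR adjusted p = 0.000217) and than in the blood-derived gate by 7.91 ± 1.08 (edgeR adjusted p = 0.000446). In inhibitor mice the same differences were 7.79 ± 0.99 (edgeR adjusted p = 4.59e-05) and 7.26 ± 1.00 (edgeR adjusted p = 0.000214). Both comparisons under a treatment share the activated libraries and are not independent.

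Ms4a1 (ENSMUSG00000024673, chr19:11249675-11266241, minus strand), the gene of CD20, followed the same division. Activated vehicle libraries 1 to 5 stood at 5.34, 76.4, 59.5, 11.3 and 23.9 CPM. Activated inhibitor libraries 1 to 6 stood at 13.5, 12.04, 11.3, 9.77, 8.22 and 7.62 CPM. The vehicle libraries spanned a much wider range than the inhibitor libraries, with a coefficient of variation of 88.2% against 22.0%, and the inhibitor values lay inside the vehicle range. All 5 resting vehicle libraries had 0 counts, and the blood-derived vehicle libraries had 0, 7, 0, 2 and 1. Taken over the groups, the activated vehicle libraries held 3386 counts of Ms4a1 against 0 in the resting ones. With 3 counts over the group as the floor, Ms4a1 was at least 1011-fold higher. Without vehicle library 2 this bound was 734-fold, and without vehicle library 3 it was 823-fold. The separate edgeR test of the same groups gave an adjusted p of 0.000535. This floor and the other floors cover counting error only, since reads copied by PCR are not independent molecules. Against the blood-derived gate the log2 fold change was 8.27 ± 1.12 (edgeR adjusted p = 0.000445). In inhibitor mice Ms4a1 was higher by 7.02 ± 1.22 than in the resting gate (edgeR adjusted p = 0.000578) and by 4.96 ± 1.06 than in the blood-derived gate (edgeR adjusted p = 0.00446). Blood-derived inhibitor libraries reached 24 counts of Ms4a1, and resting inhibitor libraries reached 8.

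Thus Cd79a and Ms4a1 were called higher in the activated gate in each of 4 comparisons, 2 of the 4 members that passed the filter on low counts each time. In the other gates their counts summed over a group reached at most 17 for Cd79a and 43 for Ms4a1. Both genes therefore passed the filter only through the activated gate, so these calls and their adjusted p-values were largely fixed in advance. The separation of the library values given above does not rest on the calls. Over all genes tested in vehicle mice, 28.9% were called against the resting gate (18.2% higher) and 18.8% against the blood-derived gate (12.3% higher). In inhibitor mice the shares were 33.3% (22.1% higher) and 20.2% (14% higher).

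Cd79b (ENSMUSG00000040592, chr11:106311341-106314762, minus strand) encodes the beta chain, which in B cells forms a heterodimer with the product of Cd79a. The resting vehicle libraries stood at 35.5, 21.9, 27.4, 26.2 and 24.7 CPM. Activated vehicle libraries stood at 5.63, 32.9, 24.1, 15.0 and 19.4 CPM, and blood-derived vehicle libraries at 11.2, 10.4, 16.1, 11.9 and 12.3 CPM. Resting libraries overlapped with activated ones but lay above all blood-derived ones. The same separation held with inhibitor, and 28.3% of genes tested in vehicle and 21.7% in inhibitor mice were likewise lower without overlap. With inhibitor the ranges were 24.4 to 39.5 CPM in the resting gate, with a median of 34.6. They were 2.13 to 34.5 CPM in the activated gate (median 19.9) and 11.5 to 19.1 CPM in the blood-derived gate (median 15.9). Activated inhibitor library 2 held the lowest level of all 33.

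In vehicle mice Cd79b was lower in the blood-derived than in the resting gate by a log2 fold change of -0.96 ± 0.15 (edgeR adjusted p = 0.000138), and in inhibitor mice by -1.02 ± 0.17 (edgeR adjusted p = 6.14e-05). When all 33 libraries entered 1 fit, the adjusted p of the vehicle comparison rose to 0.0692, the highest of the alternatives, which began at 7.99e-08. Cd79b was the only member that passed the filter in these comparisons. Of all genes tested, 62.5% were called in vehicle mice (31.6% lower) and 63.5% in inhibitor mice (32.2% lower), so a call was common there. The activated and resting gates differed by -0.37 ± 0.36 in vehicle mice (edgeR adjusted p = 0.494) and -0.71 ± 0.45 in inhibitor mice (edgeR adjusted p = 0.250). The activated and blood-derived gates differed by 0.65 ± 0.40 (edgeR adjusted p = 0.315) and 0.25 ± 0.46 (edgeR adjusted p = 0.758), and none of these passed.

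Per transcript length, the balance within the pair differed between gates. Cd79a made up 38.3% to 66.9% of the summed FPKM of both genes in activated vehicle libraries and 32.1% to 84.5% in activated inhibitor libraries. In the blood-derived gate its share was 0% to 3.03%, and in the resting gate 0% to 1.78%. The lowest activated share was thus above the highest share of any other library. In resting vehicle libraries Cd79b reached 15.3 to 22.3 FPKM while Cd79a stayed at or below 0.277 FPKM.

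**Figure D2:**
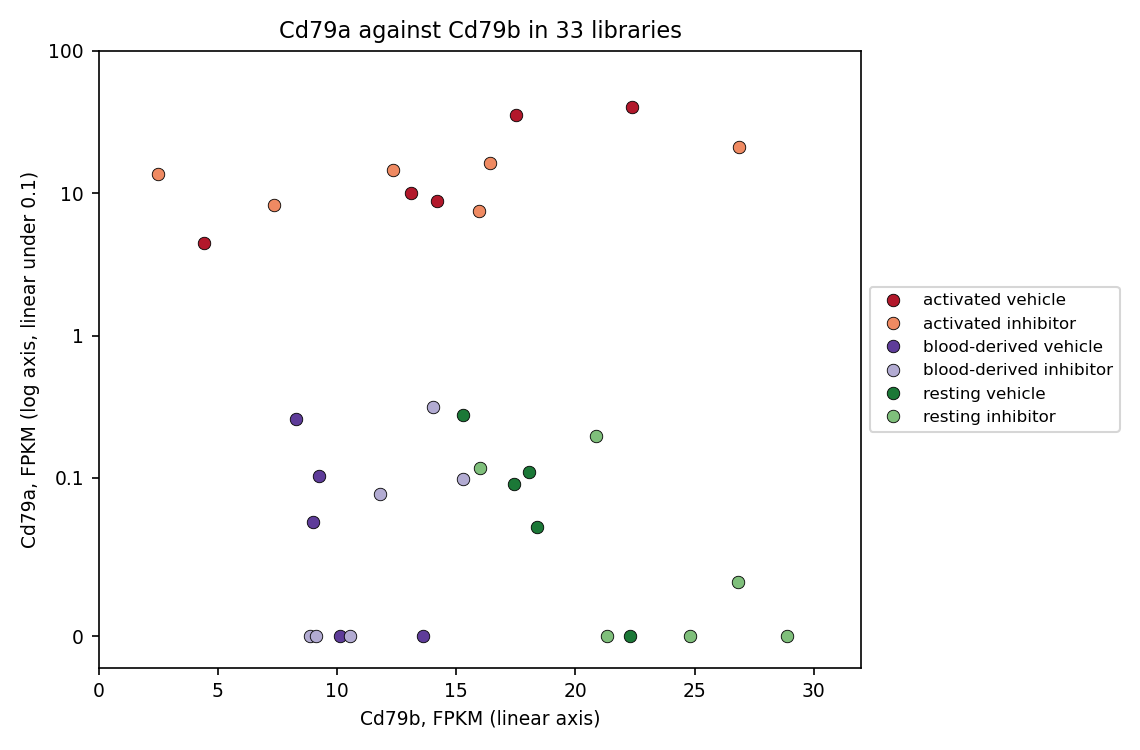
Cd79a (logarithmic axis, linear under 0.1) against Cd79b (linear axis), both in FPKM, in each of 33 libraries; colours give gate and treatment. Activated libraries lie at 4.48 FPKM of Cd79a or more, while blood-derived and resting libraries hold Cd79b with almost no Cd79a.

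Blk (ENSMUSG00000014453, chr14:63372836-63417037, minus strand), the Src family kinase of B cells, was uneven within the activated gate. Vehicle libraries 1 to 5 held 7, 0, 199, 74 and 124 counts, and inhibitor libraries 1 to 6 held 21, 0, 24, 49, 156 and 7. It was absent from vehicle library 2 and inhibitor library 2, both among those with few detected genes. All 11 resting libraries had 0 counts. Blood-derived vehicle libraries had 10, 1, 0, 3 and 7, and blood-derived inhibitor libraries had at most 4. Summed over the libraries, Blk was at least 121-fold higher in the activated than in the resting gate in vehicle mice and at least 75.7-fold higher in inhibitor mice. Without vehicle library 3 the first bound was 79.2-fold, and without inhibitor library 5 the second was 36.5-fold. It did not pass the filter in either comparison and has no call of its own in the main test. Without the filter the edgeR adjusted p was 0.0174 in vehicle and 0.0100 in inhibitor mice, where 23.6% and 25.7% of all genes were called. With 0 counts in the resting gate, these calls were largely fixed in advance. With limma-trend on log2 FPKM the adjusted p was 0.0660 and 0.0640. Against the blood-derived gate the edgeR adjusted p without the filter was 0.0935 in vehicle and 0.0463 in inhibitor mice.

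The libraries without Blk still held Cd79a and Ms4a1. Vehicle libraries 2 and 3 held 1271 and 1237 counts of Cd79a. At the ratio of Blk to Cd79a in library 3, library 2 would hold 204 Blk counts, and it held 0. The number of Blk counts per Cd79a count ran from 0 to 0.521 in vehicle and from 0 to 0.215 in inhibitor libraries.

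Ebf1 (ENSMUSG00000057098, chr11:44617317-45008091, plus strand) was low in all gates. Activated vehicle libraries held 32, 10, 71, 134 and 1 counts, and activated inhibitor libraries 43, 94, 21, 20, 10 and 19. Resting vehicle libraries held 14, 10, 21, 17 and 4, and blood-derived vehicle libraries 0, 2, 4, 10 and 9. The activated and resting ranges overlapped, and vehicle library 5, with 1 count, was the lowest of the activated gate although it had 398 counts of Ms4a1. Ebf1 differed between the activated and resting gates by 1.84 ± 1.09 in vehicle mice (edgeR adjusted p = 0.245) and by 2.12 ± 1.02 in inhibitor mice (edgeR adjusted p = 0.132). Against the blood-derived gate it differed by 3.37 ± 1.31 (edgeR adjusted p = 0.103) and by 1.68 ± 1.07 (edgeR adjusted p = 0.316). None of the 4 passed, but the vehicle difference from the blood-derived gate had an adjusted p of 0.0289 with DESeq2 and of 0.0459 with edgeR without activated vehicle library 2, in which Blk was also missing. Over all alternatives that adjusted p ran from 0.0289 to 0.340. Without that library 4 of the 5 members that then passed the filter were called, against 2 of 4 with it. The share of all genes called rose from 18.8% to 30.4%.

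Ebf1 is also expressed by pericytes and other mesenchymal cells, whose genes were followed for this reason. The 16 mural cell and fibroblast genes summed to 13.7 to 72.2 CPM in activated vehicle libraries, 33.3 to 226 CPM in activated inhibitor libraries, 9.20 to 21.8 CPM in the blood-derived gate and 17.0 to 65.6 CPM in the resting gate. Among them 11 were tested between activated and resting vehicle libraries, with 1 higher (Kcnj8, a channel subunit of pericytes, 3.84 to 41.8 CPM against at most 1.49 CPM) and 2 lower. The share of all genes called in vehicle mice was 28.9% (18.2% higher). With inhibitor 8 were tested, with 2 higher and 1 lower, beside 33.3% of all genes called (22.1% higher). Kcnj8 was then higher by 7.86 ± 1.05 (edgeR adjusted p = 7.10e-05), and Acta2, the smooth muscle actin, by 4.39 ± 1.17 (edgeR adjusted p = 0.0106; 7.58 to 78.5 CPM against at most 7.18 CPM). In vehicle mice Acta2 differed by 1.42 ± 1.23 (edgeR adjusted p = 0.431). Abcc9, a channel subunit of pericytes, and Pdgfra, a receptor of fibroblasts, had 0 counts in all 11 activated libraries, and Pdgfrb had a median of 0.237 CPM in activated against 8.78 CPM in resting vehicle libraries. Abcc9, Pdgfra and Pdgfrb were chosen after their values were seen. The part of mural cells in the Ebf1 values was not tested.

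Pax5 (ENSMUSG00000014030, chr4:44524757-44710487, minus strand) was detected almost only in the activated gate. Vehicle libraries held 1, 13, 23, 0 and 98 counts, and inhibitor libraries 2, 78, 0, 25, 95 and 3. High and very low libraries occurred under both treatments. All resting libraries and all blood-derived vehicle libraries had 0 counts, and 1 blood-derived inhibitor library had 10. In vehicle mice it was at least 40.3-fold higher in the activated than in the resting gate and at least 46.7-fold higher than in the blood-derived gate, but it did not pass the filter. Vehicle library 5 held 98 of the 135 counts, and without it these bounds were 13.5-fold and 15.6-fold. Without the filter the edgeR adjusted p was 0.0383 against the resting and 0.0530 against the blood-derived gate. In the first of these comparisons 23.6% of all genes were called. With 0 counts in the resting libraries, the Pax5 call there was largely fixed in advance. With limma-trend on log2 FPKM the adjusted p of Pax5 was 0.181 and 0.237. The 2 deposited tables ranked its libraries differently: the ratio of FPKM to CPM varied 11.3-fold over activated libraries with 10 or more counts, against 1.74-fold for Ms4a1 and Cd79a. Pax5 shares 636 exonic bases with 5730488B01Rik and 125 with Gm12462, both on the opposite strand. Use of strand in counting was not stated, so reads in the shared bases cannot be told apart. As listed, 5730488B01Rik stood at 0 FPKM in all 5 activated vehicle libraries. It was above 0 in 2 of 6 activated inhibitor libraries, with at most 0.370 FPKM. Gm12462 was in neither the count nor the FPKM table. The part of these genes in the Pax5 values was not tested.

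**Figure D3:**
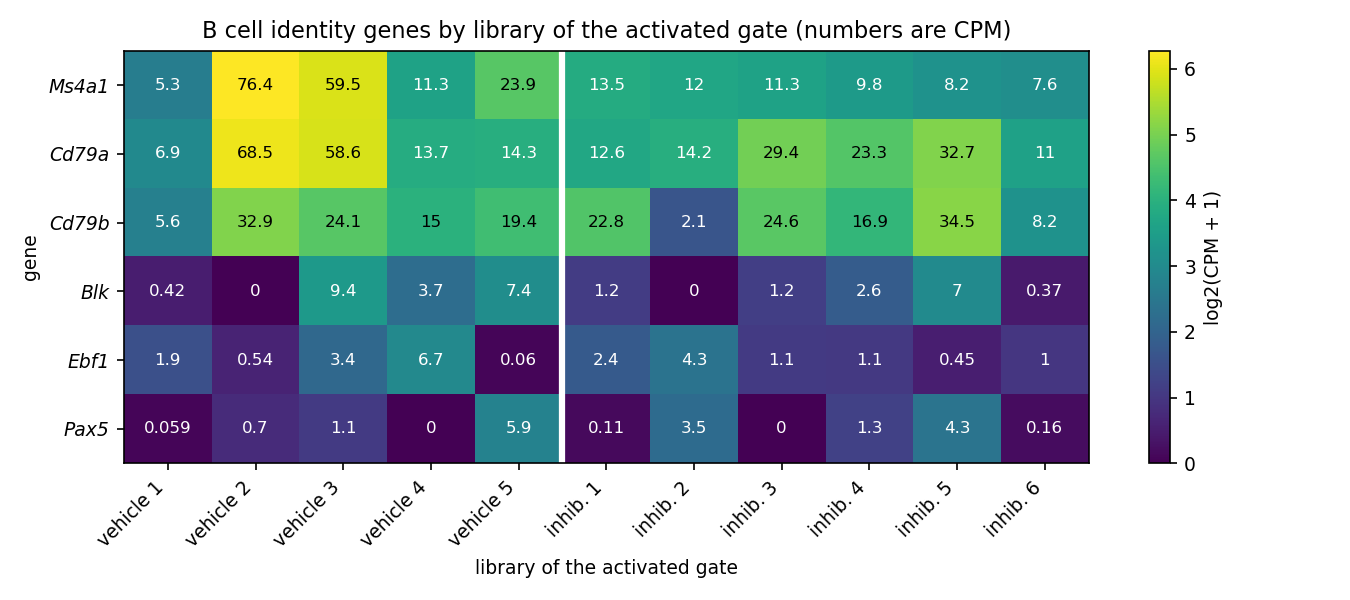
CPM of the 6 genes in each of the 11 activated libraries, with colour as log2(CPM + 1); the white line divides vehicle from inhibitor libraries. Vehicle libraries 2 and 3 are highest for Ms4a1 and Cd79a, Blk is highest in vehicle library 3, Ebf1 in vehicle library 4 and Pax5 in vehicle library 5, and each of Blk and Pax5 is at 0 in 2 of the 11.

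Within the activated gate the 15 pairs of members were compared over libraries. Over the 11 libraries Cd79a and Cd79b had a Pearson r of 0.70 (permutation p = 0.0161, adjusted over 15 pairs p = 0.121) and a Spearman rho of 0.78 (permutation p = 0.00629, adjusted p = 0.0944). Without the 2 libraries farthest from the median r was 0.77. Ms4a1 and Cd79a had r = 0.90 (permutation p = 0.0057, adjusted p = 0.0855) and rho = 0.60 (permutation p = 0.0563, adjusted p = 0.422). That relation rested on vehicle libraries 2 and 3: without the 2 farthest libraries r was -0.06, and within the 6 inhibitor libraries it was -0.27. No pair of the 15 passed after adjustment. Ebf1 and Pax5 had r = -0.30 (permutation p = 0.385, adjusted p = 0.797) and rho = -0.51 (permutation p = 0.115, adjusted p = 0.575).

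The genes whose CPM was most like the summed CPM of the 6 members over these 11 libraries were, as a description, mostly widely expressed ones. Of 11788 genes compared, Polr2l, an RNA polymerase subunit, had the highest Spearman rho, 0.95. It was followed by Kdm5c (0.93), Vps25 (0.91), Ptpn18 and Mcrip1 (both 0.90), Mrpl16 and Tmco1 (both 0.89), and Mea1, Tomm22 and Gm10382 (all 0.88). Among listed B cell genes the closest was Ly6d, at 0.83 and rank 44, then Pou2af1 at 0.75 and rank 214. These libraries share preparation and differ in depth and detected genes.

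Treatment with the CSF1R inhibitor changed none of the 6 genes past the threshold in any gate. In the activated gate all 6 passed the filter, and 0 were called by edgeR, DESeq2 or limma-trend, with 1 of 6 at an unadjusted edgeR p under 0.05. Over all 11675 genes edgeR called 0 (0%), and 3.57% had an unadjusted p under 0.05. Ms4a1 had the lowest p, with a mean of 35.3 ± 31.1 CPM (SD, n = 5) with vehicle and 10.4 ± 2.29 CPM (SD, n = 6) with inhibitor, a log2 fold change of -1.65 ± 0.60 (edgeR adjusted p = 0.999). The means of Cd79a were 32.4 ± 28.8 and 20.5 ± 9.27 CPM, a log2 fold change of -0.60 ± 0.57. Those of Cd79b were 19.4 ± 10.2 and 18.2 ± 11.7 CPM, a change of -0.12 ± 0.62. Blk, Ebf1 and Pax5 gave -1.06 ± 1.53, -0.45 ± 1.23 and 0.21 ± 1.69.

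The ratio of Ms4a1 to Cd79a counts ran from 0.769 to 1.67 in activated vehicle and from 0.251 to 1.07 in activated inhibitor libraries. Inhibitor libraries 3, 4, 5 and 6 had ratios of 0.385, 0.419, 0.251 and 0.696, below all vehicle libraries. The other 2 lay within the vehicle range, and the ratio was not tested.

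In the resting gate Cd79b had a mean of 27.2 ± 5.09 CPM with vehicle (SD, n = 5) and 33.6 ± 5.80 CPM with inhibitor (SD, n = 6). The log2 fold change was 0.32 ± 0.14 (edgeR adjusted p = 0.901). Ebf1 gave -0.67 ± 0.81 there (edgeR adjusted p = 0.990). These 2 were the members tested, edgeR, DESeq2 and limma-trend called 0, and 1 had an unadjusted p under 0.05, where edgeR called 0 (0%) of 12226 genes and 5.49% had an unadjusted p under 0.05. In the blood-derived gate only Cd79b was tested, with 0.28 ± 0.17 (edgeR adjusted p = 0.492), where 0.274% of all genes were called and 14.6% had an unadjusted p under 0.05. The inhibitor effect on Ms4a1 in the activated gate differed from that in the resting gate by -5.40 ± 1.74 (edgeR adjusted p = 0.612) and from that in the blood-derived gate by -3.34 ± 1.35 (edgeR adjusted p = 0.852). No member and no other gene passed as an interaction (0% in both), with 5.88% and 5.43% of genes at an unadjusted p under 0.05. The resting gate had 0 counts of Ms4a1 with vehicle, so the size of the first difference depends on the prior count of the fit.

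Other genes of B cells were not uniform over the gates either. Of 14 surface and co-receptor genes, 11 were tested between activated and resting vehicle libraries, 4 were higher and 1 lower. Their median log2 fold change was 0.14, beside -0.10 over all genes, of which 28.9% were called (18.2% higher). Among the higher ones was Cd24a, a surface glycoprotein of B cell precursors and of neutrophils, at 228 to 517 CPM against 0.771 to 4.85 CPM (7.79 ± 0.56, edgeR adjusted p = 5.79e-06). Cd74, the invariant chain of MHC class II, and Cd37 and Cd72, membrane proteins of B cells, did not pass. Their differences were 0.14 ± 0.38 (edgeR adjusted p = 0.817), -0.14 ± 0.16 (edgeR adjusted p = 0.584) and -0.49 ± 0.37 (edgeR adjusted p = 0.363). Cd37 reached 346 to 416 CPM in resting vehicle libraries. In the contrast with blood-derived cells 12 were tested, 5 higher and 2 lower, with Cd37 higher by 1.06 ± 0.17 (edgeR adjusted p = 0.00125). There 18.8% of all genes were called in vehicle mice (12.3% higher).

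The 11 genes of signalling below the B cell receptor were all tested, with 3 higher and 4 lower in the activated than in the resting gate in vehicle mice. Beside them 28.9% of all genes tested were called (18.2% higher). Syk, the kinase recruited by phosphorylated Cd79a and Cd79b, was higher by 1.69 ± 0.19 (edgeR adjusted p = 8.51e-05), and it also serves Fc receptors of myeloid cells. Also higher were Lck (6.51 ± 0.56, edgeR adjusted p = 1.31e-05) and Fyn (2.20 ± 0.45, edgeR adjusted p = 0.00367), named with their values seen. Both are Src family kinases that T and NK cells also express. The part of those cells in these calls was not tested. Cd81, a tetraspanin that many cells express, was lower by 2.94 ± 0.51 on the log2 scale (94.1 to 760 CPM against 2680 to 3559 CPM; edgeR adjusted p = 0.00136). Lyn, a Src family kinase, and Plcg2, a phospholipase, differed by -0.16 ± 0.14 (edgeR adjusted p = 0.449) and -0.22 ± 0.17 (edgeR adjusted p = 0.373). Bank1, a scaffold protein of B cells that was picked with its values in view, stood at 21.9 to 56.8 CPM in resting and 0.547 to 2.90 CPM in blood-derived vehicle libraries, with 6.91 to 68.4 CPM in activated ones. Compared with blood-derived cells 4 were higher and 0 lower, where 18.8% of all genes were called in vehicle mice (12.3% higher).

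Of 12 transcription factors of the lineage, 11 were tested against the resting gate in vehicle mice, with 4 higher and 1 lower. The share of all genes called was 28.9% (18.2% higher). Ikzf3, a zinc finger factor of lymphocytes, stood at 15.5 to 89.9 CPM in activated vehicle libraries and at most 0.0593 CPM in resting ones (edgeR adjusted p = 1.62e-05). Spi1, the factor PU.1 of B and myeloid cells, was higher by 1.07 ± 0.19 (edgeR adjusted p = 0.00141). Irf8, shared by B cells and microglia, was lower by 0.61 ± 0.15 on the log2 scale (edgeR adjusted p = 0.00824), and Foxo1 differed by -0.21 ± 0.22 (edgeR adjusted p = 0.514). Relative to the blood-derived gate 12 were tested, 4 higher and 0 lower, where 18.8% of all genes were called in vehicle mice (12.3% higher). Pou2af1, a B cell coactivator chosen after its values were seen, had 0 counts in all blood-derived and resting vehicle libraries and 1.54 to 29.53 CPM in activated vehicle libraries.

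The list of 12 B cell precursor genes held genes at 0 beside genes of wider expression, and its summed level was 38.3 to 211 CPM in the activated gate, 262 to 468 CPM in the blood-derived gate and 111 to 211 CPM in the resting gate. Igll1, the surrogate light chain, Rag1 and Rag2, which cut antigen receptor genes, and Dntt, which adds bases at the joins, had 0 counts in all 33 libraries, and these 4 genes were picked with their values seen. Of the 12 genes 4 were tested against the resting gate in vehicle mice, and 1 was higher, beside 18.2% of all genes tested. That gene was Cd93, also a myeloid and endothelial gene, with 26.1 to 123 CPM against 0.830 to 26.2 CPM (2.69 ± 0.76, edgeR adjusted p = 0.0209). Il7r, the receptor of IL-7, Sox4 and Myb, the latter pair being transcription factors, differed by -0.72 ± 0.25 (edgeR adjusted p = 0.0515), -2.10 ± 0.91 (edgeR adjusted p = 0.113) and 2.46 ± 0.96 (edgeR adjusted p = 0.0806).

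Of 8 plasma cell genes, 5 were tested against the resting gate in vehicle mice, 1 higher and 1 lower. Over all genes tested there, 28.9% were called (18.2% higher). Mzb1, a chaperone of antibody secretion, stood at 1.25 to 33.1 CPM in activated vehicle libraries and at 0 counts in resting ones (edgeR adjusted p = 0.00163). Tnfrsf17, the receptor BCMA of plasma cells, had 0 counts in all 5 activated vehicle libraries and 2.04 to 5.21 CPM in resting ones (edgeR adjusted p = 0.00119), and it was chosen after its values were seen. Jchain, which joins secreted IgM and IgA, reached 132 CPM in the activated vehicle group with a median of 72.3 CPM, and had a median of 0 CPM in the activated inhibitor group. It did not pass the filter against the resting gate, and its inhibitor difference was -2.56 ± 1.95 (edgeR adjusted p = 0.999). With limma-trend on log2 FPKM it was higher in activated than in resting vehicle libraries by 4.23 ± 1.00 (limma adjusted p = 0.0108). There 20.4% of all genes were called (9.66% higher). With inhibitor that difference was 0.98 ± 0.81 (limma adjusted p = 0.4245). Xbp1 and Prdm1, regulators of secretion with wider expression, differed by -0.26 ± 0.13 (edgeR adjusted p = 0.157) and -0.09 ± 0.33 (edgeR adjusted p = 0.866). Over the drug comparisons no gene of these 5 lists was called by edgeR.

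Immunoglobulin constant genes were present only in the FPKM table and were tested there with limma-trend on log2(FPKM + 1), a scale that understates changes of low genes. In vehicle mice 6 of 11 were higher and 0 lower in the activated than in the resting gate, where 20.4% of genes in that table were called (9.66% higher). Against the blood-derived gate 7 were higher and 0 lower (11.4% of genes called, 5.91% higher). With inhibitor, 4 were higher and 1 lower than in the resting gate (25.1% called, 11.2% higher) and 6 higher and 0 lower than in the blood-derived gate (12.4% called, 6.24% higher). None was called for the inhibitor in any gate.

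Igkc, the constant part of the kappa light chain, stood at 91.2, 1235, 279, 384 and 1087 FPKM in activated vehicle libraries 1 to 5. In activated inhibitor libraries 1 to 6 it stood at 208, 510, 173, 80.7, 78.8 and 30.2 FPKM. No library of the other gates exceeded 11.6 FPKM, and the vehicle and inhibitor ranges overlapped. The activated and resting vehicle groups differed by 8.48 ± 0.60 on the log2(FPKM + 1) scale (limma adjusted p = 1.89e-06). The inhibitor difference was -1.76 ± 0.75 (limma adjusted p = 0.839).

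Ighm, the heavy chain of IgM, was like Cd79b found in all gates. It stood at 146 to 188 FPKM in resting vehicle libraries, 92.2 to 286 FPKM in activated ones and 36.4 to 66.7 FPKM in blood-derived ones. Resting libraries therefore held high Ighm with at most 3.48 FPKM of Igkc in either treatment. The activated and resting vehicle groups differed by -0.26 ± 0.26 (limma adjusted p = 0.492). With inhibitor the difference was -0.87 ± 0.20 (limma adjusted p = 0.00601), so Ighm was then called lower in the activated gate. The blood-derived vehicle group was lower than the resting vehicle group by 1.79 ± 0.14 on the same scale (limma adjusted p = 5.16e-07). Ighd, the heavy chain of IgD, was likewise listed in all 11 resting libraries, at 1.03 to 4.57 FPKM.

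The class-switched heavy chains differed from library to library in the activated gate. Ighg3 led in vehicle libraries 2, 3 and 5, with 924, 18.0 and 415 FPKM. Igha led in vehicle library 4 with 215 FPKM, beside 146 FPKM of Ighg1, and Ighg2c led in vehicle library 1 with 29.52 FPKM. In inhibitor libraries 2 and 3 Igha led with 178 and 18.8 FPKM, in library 4 Ighg3 with 11.2 FPKM, and in libraries 5 and 6 Ighg1 with 3.34 and 3.22 FPKM. In inhibitor library 1 all 5 switched genes were listed at 0, while Ighd stood at 19.3 FPKM. Ighd, Ighg1 and Ighg2c are named with their values seen. Over the 11 libraries Ighg3 led in 4, Igha in 3, Ighg1 in 2, Ighg2c in 1 and none in 1. The leading gene made up 94.4% of the summed switched FPKM in vehicle library 2 and 39.5% in vehicle library 3. Constant genes of close sequence, such as Ighg2b with Ighg2c and the Iglc genes with each other, may share reads, so their separate values are uncertain.

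**Figure D4:**
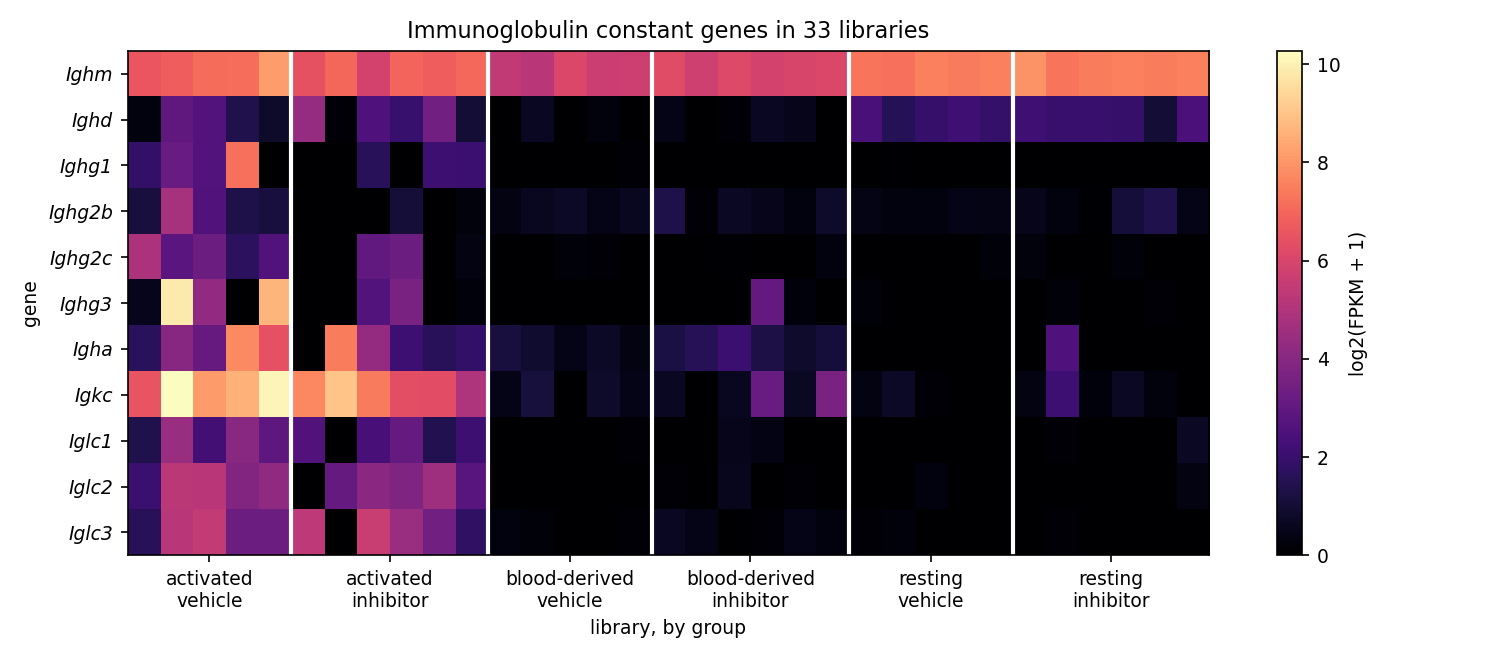
Levels of 11 immunoglobulin constant genes as log2(FPKM + 1) in 33 libraries, ordered by gate and treatment; white lines divide the groups. Ighm is present in all gates, Igkc is high in the activated gate alone with at most 11.6 FPKM elsewhere, and the switched heavy chains differ between activated libraries.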

How the data were processed

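Sorted cells (100 to 380000) went into lysis buffer, and RNA was amplified by SMART-Seq v4 (11 or 17 PCR cycles) before Nextera XT preparation and NextSeq sequencing, per the labels' protocols. Cell number and cycles of single libraries were not given. GRCm38 and bcl2fastq (version absent) are listed in the submitters' processing notes, while aligner and counter are not given in the sources used here. Expected counts were deposited by the authors in one gene table, and 16.3% of them were not whole, so they were rounded before testing. FPKM with 1 added, as log2, were deposited by the authors in another, whose 75th percentile was 2.936 in every library.

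Symbols and positions came from GENCODE M21. CPM are counts per 1000000 of a library's total. For each comparison edgeR 4.0.16 in R 4.3.3 (filterByExpr, TMM, robust quasi-likelihood F test) was fitted on the libraries of the groups compared. P-values were adjusted by Benjamini-Hochberg across every gene that entered the fit, with calls under 0.05. The standard error is the log2 fold change divided by the root of F. Genes outside the count table were tested with limma-trend (limma 3.58.1) on log2 FPKM. The alternatives were DESeq2 1.42.0, RLE size factors, a minimum of 1 count in place of the filter, a joint fit of all 33 libraries, limma-trend, the replicate number as a block, leaving out each library, and leaving out the 3 activated libraries under 11000 detected genes. The code was tested on simulated counts. Correlations used 100000 permutations.

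The members, the lists of other genes and the comparisons were chosen with earlier results of these data known. All 6 members are named. Of each other list of B cell genes the 4 genes with the highest mean over the activated libraries are named, and others are marked as picked with their values seen. Of the other 13 lists, plasmacytoid dendritic cell genes had 0 higher and 3 lower of 7 tested between activated and resting vehicle libraries, and genes of monocyte-derived cells 10 higher of 10. Over all genes tested there, 28.9% were called (18.2% higher).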

Additional observations from a re-analysis of the deposited data

Results flagged for a closer look

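A single library stood apart from the rest of its group in 14 of 52 groups of values tested with Dixon's criterion. For normally distributed values chance alone exceeds it in about 1 of 20 groups. Many groups here held zeros or skewed values, so that rate does not apply to them and no excess can be read from the number. In the activated gate these were Blk in inhibitor library 5 (7.04 CPM, next 2.58) and Pax5 in vehicle library 5 (5.88 CPM, next 1.09). Among the immunoglobulin genes they were Ighm in vehicle library 5 (286 FPKM), Ighg1 in vehicle library 4 (146 FPKM), Ighg2b in vehicle library 2 (25.7 FPKM) and in inhibitor library 4 (1.07 FPKM), and Ighg2c in vehicle library 1 (29.52 FPKM). Inhibitor library 2 stood apart for both Igha (178 FPKM, next 18.8) and Igkc (510 FPKM, next 208).

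Outside the activated gate the values that stood apart rested on few reads. They were Ms4a1 in blood-derived vehicle library 2 (0.383 CPM, 7 counts) and in resting inhibitor library 2 (0.504 CPM, 8 counts), and Cd79a in blood-derived inhibitor library 3 (0.497 CPM, 10 counts). Blood-derived inhibitor library 5 stood apart for both Ebf1 (2.21 CPM, 38 counts) and Pax5 (0.582 CPM, 10 counts).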

How the results depend on the processing

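Of the counts of called members under alternatives, 209 stayed within 1.5 times the main count and 7 did not. Against the resting gate 4 members were called in vehicle and 4 in inhibitor mice, in place of 2, without the filter and with all 33 libraries in 1 fit, where all 6 members entered in place of 4. The shares of all genes called were then 23.6% and 34.9% in vehicle and 25.7% and 45.5% in inhibitor mice. Against the blood-derived gate in vehicle mice 4 of 5 members tested were called without vehicle library 2, the activated library under 11000 detected genes. There 30.4% of all genes were called. The count of called members ran from 2 to 4 with single libraries left out. Between the blood-derived and resting gates 2 were called without the filter in vehicle mice, where 47.1% of all genes were called. The lower bounds of Ms4a1, Blk and Pax5 without single libraries, given above, were chosen after seeing the data. Of the values for single members 788 kept direction and side of the threshold, 3 passed newly, 1 (Cd79b, given above) was lost and 34 changed sign, all among differences that had not passed. For activated against blood-derived inhibitor libraries, Cd79b became -0.026 with limma-trend and -0.025 with the replicate block, and ran from -0.057 to 0.46 without single libraries. For inhibitor against vehicle in the activated gate without the 3 libraries under 11000 detected genes, Cd79a, Cd79b and Pax5 became 0.015, 0.33 and -0.29, and with the replicate block Ebf1 became 0.30. Without single libraries Cd79b ran from -0.42 to 0.11, Ebf1 from -1.18 to 0.42 and Pax5 from -0.40 to 1.97. For the inhibitor effect in the activated minus the resting gate, Cd79a became -0.10 with limma-trend, and Ebf1 and Pax5 became -1.14 and -0.29 without the 3 libraries. Without single libraries Cd79a ran from -0.48 to 1.07, Ebf1 from -0.56 to 1.11 and Pax5 from -0.39 to 1.97. For the activated minus the blood-derived gate, Cd79b became 0.021 without the 3 libraries, and Blk and Pax5 became -0.40 and 0.26 with limma-trend. Without single libraries Cd79a ran from -1.57 to 0.38, Blk from -0.019 to 1.96 and Pax5 from -4.34 to 0.21. The cause of these changes was not tested. Replicate numbers were shared between groups. Correlations of same-numbered libraries ran from -0.18 to 0.40, and no comparison had all pairs over 0.1. Such correlations cannot decide whether same-numbered libraries came from the same animal, which the labels do not give. The replicate block changed no count of called members: 2 in each comparison of the activated gate with another gate, 1 between the blood-derived and resting gates, and 0 for the inhibitor.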
